A study of Homo sapiens with 35 samples.

Results

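The 48 genes described here encode the machinery of cell division: mitotic kinases, cyclins and CDC25 phosphatases, spindle checkpoint proteins, chromosomal passenger subunits, mitotic kinesins, centromere and kinetochore proteins, spindle assembly and cytokinesis factors, proteins of chromosome structure and separation, and the transcription factor FOXM1. They were taken by gene symbol from the protein-coding entries of the count table, 48 of 19665 such entries, of which 17999 had a count in at least 1 library and were tested. All 48 were among those tested, and all 48 also passed the expression filter of edgeR.

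RPMI-8226 is a multiple myeloma cell line, a tumor of plasma cells, and carfilzomib is an irreversible inhibitor of the proteasome. The cells received 750 nM carfilzomib for 1 h, were washed, and were then kept in drug-free medium that was replaced every 48 h. RNA was sequenced from 5 libraries on day 0 and 5 each on days 1, 2, 4, 6, 8 and 10, 35 libraries in all. The labels list the drug for the day 0 libraries as well, whereas the study's methods place day 0 before the drug was added, and day 0 is treated here as the untreated baseline. The subcultures were split from 1 expanded culture of 1 cell line, so the spread between libraries covers culture, extraction and sequencing but not separate experiments. No subculture went without the drug on the later days, so time in culture, changes of density and the drug cannot be told apart.

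During mitosis, cyclin-dependent kinase 1 with its A- and B-type cyclins, polo-like kinase and the Aurora kinases drive spindle formation, while kinesin motors slide and depolymerize microtubules and kinetochores attach chromosomes to them. The spindle checkpoint holds back the anaphase-promoting complex until every kinetochore is attached, after which securin and the cyclins are degraded and separase opens the cohesin rings. Transcripts of most of these genes are known to be scarce in resting and G1 cells and to accumulate in G2 and M phase, so that bulk RNA from a culture carries their average over cells in all phases. In such samples, fewer cells in division and less RNA per dividing cell cannot be told apart.

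Total estimated counts per library lay between 6519392 and 10962890, and no pair of libraries within a day was alike enough to be 1 library deposited again. The plasma cell markers were present, 10 of 11 in every library and CD27 at or near 0. Their summed level was 6623 to 7534 CPM on day 0 and 2931 to 3270 CPM on day 1. It was 4795 to 5656 CPM on day 2 and, at the last time point, 7491 to 8831 CPM. JCHAIN was the largest part of this sum, with means of 4760, 1440 and 2890 CPM for days 0, 1 and 2. The smaller sum on day 2 was not shared by most of the 11 markers, whose median log2 fold change was 0.09. SDC1, CD38, TNFRSF17, MZB1 and POU2AF1 were called higher in that comparison, whereas IRF4, JCHAIN and SLAMF7 fell. For day 1 the calls were 6 falls and 1 rise, that of POU2AF1. Among markers of other cell types, CD3D, NKG7, LYZ, COL3A1 and HBB stayed at or below 0.475 CPM in every library, and EPCAM was highest, at 44 to 95.7 CPM. The summed level of that whole list lay between 75.61 and 101.8 CPM on day 0 and, without overlap, between 107.5 and 123.6 CPM on day 2, when 6 of its 15 tested genes (EPCAM, ITGAM, CD8A, PAX5, HBA1 and CD14) were called higher and 2 lower. It lay between 117.8 and 137.8 CPM on day 10. The part of these marker levels in the results on the mitotic genes was not tested. CPM are counts per 1e+06 protein-coding counts, scaled by TMM factors. A gene was called when its adjusted p in the edgeR quasi-likelihood test was at or below 0.05.

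All 48 genes were higher on day 2 than on day 0, and 46 of them more than 2-fold, the exceptions being BUB3 and CDC25B. Of all entries tested, 23.2% were called higher and 24.4% lower in that comparison, and 6.32% were higher by more than 2-fold. The median log2 fold change over the 48 genes was 2.11, with a range from 0.37 to 3.23, against a median of -0.04 over all entries tested. In all 48 genes every day 2 library lay above every day 0 library, which held for 18.5% of all entries. Of all protein-coding counts the 48 genes took 0.103% ± 0.00289 on day 0 and 0.423% ± 0.013 on day 2 (SD, n = 5), and the means for days 1, 4, 6, 8 and 10 were 0.131%, 0.303%, 0.206%, 0.22% and 0.198%. The highest mean was on day 2 for 47 genes and on day 4 for CDC25B. The lowest mean was on day 0 for 37 genes, on day 1 for 10 and on day 8 for BUB3. The study itself counted the fewest viable cells on day 2 and the most apoptotic cells on day 4. By BrdU labelling it found the least proliferation on day 2, with an increase by day 4. From its transcript clusters, the study read enrichment of cell cycle pathways as a restart of proliferation early in recovery. The peak of these transcripts is not taken here as a measure of dividing cells, and how the RNA levels relate to cell loss and proliferation was not tested.

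**Figure D1:**
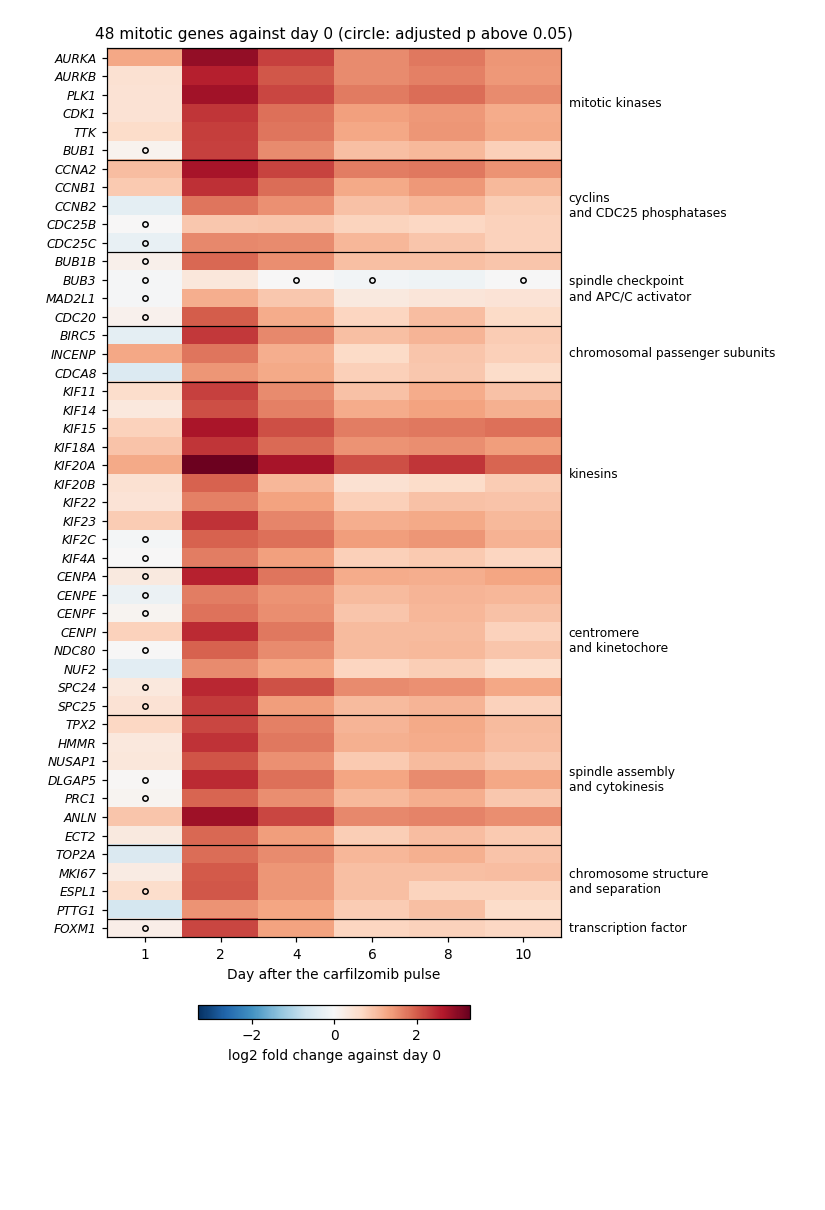
Log2 fold change of each of the 48 genes (rows, by role) on days 1, 2, 4, 6, 8 and 10 against day 0 (columns). Color gives the log2 fold change and an open circle an adjusted p above 0.05. Day 1 holds both directions, with 23 genes higher and 6 lower, whereas on day 2 all 48 were higher, with a median of 2.11.

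The 6 mitotic kinases rose together on day 2, by 2.25 (BUB1) to 2.90 (AURKA) on the log2 scale. AURKA, the kinase of centrosomes and spindle poles, was at 6.47, 6.03, 5.72, 7.42 and 6.74 CPM in the day 0 libraries and at 51.4, 52.2, 49.3, 44.9 and 43.3 CPM on day 2. The lowest day 2 library was several times above the highest day 0 library, and the log2 fold change was 2.90 ± 0.14 (SE, adjusted p = 8.41e-22). BUB1, a checkpoint kinase that also marks centromeric chromatin, was at 44.7, 40.6, 42.9, 49.7 and 45.8 CPM on day 0 and at 213, 217, 214, 209 and 212 CPM on day 2, where its libraries were close together. The other 4 lay between them: PLK1, the polo-like kinase, changed by 2.77, AURKB, the catalytic subunit of the chromosomal passenger complex, by 2.56, CDK1, the master mitotic kinase, by 2.35, and TTK, the checkpoint kinase MPS1, by 2.28.

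Among the cyclins and CDC25 phosphatases the size of the day 2 rise was less even. CCNA2, cyclin A2, was at 9.99, 10.5, 9.65, 9.62 and 11.6 CPM on day 0 and at 70.3, 73.0, 65.6, 63.9 and 67.0 CPM on day 2, a log2 fold change of 2.73 ± 0.13 (SE, adjusted p = 5.82e-22). CCNB1, cyclin B1, changed by 2.42 and CCNB2, cyclin B2, by 1.77. CDC25C, a phosphatase that activates CDK1, changed by 1.59. CDC25B, a phosphatase that acts at the G2/M transition, had one of the smallest rises, from 46.3, 43.8, 49.2, 46.5 and 46.2 CPM to 94.9, 89.2, 86.1, 82.1 and 79.3 CPM, a log2 fold change of 0.90 ± 0.08 (SE, adjusted p = 2.02e-13). The day 0 and day 2 libraries of CDC25B did not overlap.

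The 4 genes grouped here as spindle checkpoint and activator of the anaphase-promoting complex had the lowest median of the roles, 1.54. The checkpoint kinases BUB1 and TTK are counted with the mitotic kinases, so the ranking is not one of all checkpoint genes. CDC20, which activates the anaphase-promoting complex once the checkpoint is satisfied, was at 21.0, 25.2, 22.2, 23.8 and 25.4 CPM on day 0 and at 92.1, 95.3, 98.6, 93.6 and 86.7 CPM on day 2 (log2 fold change 1.99). BUB1B, the checkpoint protein BUBR1, changed by 1.89 and MAD2L1, the checkpoint protein MAD2, by 1.19. BUB3, a WD-repeat partner of both BUB1 and BUB1B that is also present outside mitosis, was at 116, 117, 124, 126 and 119 CPM on day 0 and at 150, 157, 162, 155 and 153 CPM on day 2. This was the smallest rise of the 48 (0.37 ± 0.05, SE, adjusted p = 1.04e-08), although the groups did not overlap. Later BUB3 was near its day 0 level: its log2 fold changes against day 0 for days 4, 6 and 10 were 0.01, -0.10 and -0.01, none of them called. On day 8 it was called lower (-0.14 ± 0.05, adjusted p = 0.02), as were 18.6% of all entries, at 105, 104, 114, 115 and 109 CPM with no overlap with day 0. That call was lost when any 1 of 5 particular libraries, named in the closing section, was left out. It was also lost without scaling factors, with only these days fitted and when all transcript biotypes were summed.

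Among the chromosomal passenger subunits, which target Aurora B to centromeres and the midzone, BIRC5 (survivin) rose most on day 2, from 22.4, 19.8, 17.0, 20.2 and 23.5 CPM to 106, 111, 101, 101 and 99.6 CPM, a log2 fold change of 2.33 ± 0.10 (SE, adjusted p = 1.62e-23). CDCA8 (borealin) was at 29.7, 34.6, 31.1, 29.1 and 31.4 CPM on day 0 and at 93.3, 89.2, 92.3, 77.3 and 78.8 CPM on day 2, the smallest change of the group at 1.47. INCENP, the scaffold of the complex, went from 34.5 ± 2.76 to 117 ± 5.55 CPM (SD, n = 5), a change of 1.76. The 3 subunits differed on day 1, as described below.

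All 10 kinesins were more than 2-fold higher on day 2, by 1.66 (KIF22) to 3.23 (KIF20A). KIF20A, the motor that brings passenger proteins to the central spindle, changed most of all 48 genes and was at 5.77, 4.60, 2.68, 4.41 and 3.08 CPM on day 0 and at 42.1, 36.9, 39.8, 42.0 and 36.5 CPM on day 2 (3.23 ± 0.16, SE, adjusted p = 5.17e-22). Its day 0 level rested on 15 to 41 counts per library. KIF22, a chromosome arm motor, was at 31.6, 36.8, 31.1, 32.1 and 30.6 CPM on day 0 and at 104, 105, 103, 96.5 and 105 CPM on day 2. The bipolar spindle motors KIF11 and KIF15 changed by 2.26 and 2.69, the latter by 2.03 when all its transcript entries were summed, KIF23, of the centralspindlin complex, by 2.38, KIF18A, which dampens chromosome oscillation, by 2.35, and the cytokinesis motors KIF14 and KIF20B by 2.13 and 1.96. KIF2C, a microtubule depolymerase at centromeres, changed by 1.96 and KIF4A, a midzone and chromosome motor, by 1.68.

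The 8 centromere and kinetochore genes rose by 1.55 (NUF2) to 2.54 (CENPA). CENPA, the histone H3 variant of centromeres, was at 4.50, 5.08, 3.75, 1.60 and 5.58 CPM on day 0 and at 24.7, 21.8, 24.4, 26.4 and 23.8 CPM on day 2. NUF2, a subunit of the NDC80 complex that binds microtubules, was at 16.5, 16.3, 16.6, 18.2 and 10.2 CPM on day 0 and at 43.5, 45.8, 44.5, 50.9 and 43.9 CPM on day 2. The NDC80 complex did not move by 1 common amount: NDC80 changed by 1.95, SPC24 by 2.48 and SPC25 by 2.31, against 1.55 for NUF2. CENPI, of the inner kinetochore, changed by 2.46, CENPF, an outer kinetochore protein, by 1.79 and CENPE, the kinesin of the kinetochore, by 1.68.

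Of the 7 spindle assembly and cytokinesis genes, ANLN, the actin-binding protein anillin of the cleavage furrow, rose most, from 5.63, 6.03, 3.93, 5.81 and 3.66 CPM to 30.6, 33.2, 39.0, 37.0 and 35.2 CPM (log2 fold change 2.79). ECT2, the exchange factor that activates RhoA at the furrow, rose least, from 18.6, 17.6, 19.1, 18.4 and 22.5 CPM to 69.2, 69.6, 71.3, 76.5 and 70.2 CPM (1.89). DLGAP5 and HMMR, spindle microtubule proteins, changed by 2.47 and 2.38, TPX2, the activator of Aurora A, by 2.21, NUSAP1, a microtubule bundler, by 2.08 and PRC1, which crosslinks midzone microtubules, by 1.92. In the current annotation 81.4% of the exonic bases of NUSAP1 and 57.6% of those of PRC1 are also exonic in another protein-coding gene on the same strand. Of those of PRC1, 34.3% lie opposite PRC1-AS1. The counts of these genes may thus be uncertain in how reads were divided. Whether the overlapping genes were in release 28 of the annotation, used for the counts, was not checked.

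The genes of chromosome structure and separation rose by 1.47 (PTTG1) to 2.04 (ESPL1). TOP2A, the topoisomerase that untangles sister chromatids, was at 108, 114, 117, 119 and 112 CPM on day 0 and at 411, 390, 421, 397 and 409 CPM on day 2, a log2 fold change of 1.83 ± 0.07 (SE, adjusted p = 7.38e-25). MKI67, the proliferation marker that coats mitotic chromosomes, also changed by 2.04. PTTG1 (securin), the inhibitor of separase, was at 17.7, 17.5, 16.6, 17.4 and 18.9 CPM on day 0 and at 48.5, 58.8, 48.7, 42.9 and 44.8 CPM on day 2. ESPL1, separase itself, was at 13.5, 13, 14.8, 12 and 5.78 CPM on day 0 and at 51.0, 39.6, 56.1, 55.2 and 43.7 CPM on day 2. Its lowest day 0 library, replicate 5, also had counts under another transcript entry, as given below. The size of the ESPL1 rise, and its place in this group, may thus depend on how reads were divided. PTTG1 and KIF4A have close copies, PTTG2 and KIF4B, which took 3 and 13 counts over all libraries against 7226 and 10445.

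FOXM1, a transcription factor known to bind promoters of G2/M genes, was at 14.8, 17.9, 21.6, 18.4 and 18.3 CPM on day 0, at 19.7, 21.6, 17.6, 23.7 and 23.8 CPM on day 1 and at 86.4, 85.5, 86.8, 83.7 and 76.8 CPM on day 2. Days 0 and 1 overlapped, and day 2 lay above both. The log2 fold change against day 0 was 0.23 ± 0.14 on day 1 (SE, adjusted p = 0.166) and 2.21 ± 0.12 on day 2 (adjusted p = 5.15e-19). Of the exonic bases of FOXM1, 15.9% lie opposite exons of ITFG2. The kit keeps strand, but the strand setting of the counting is not given in the sources used here.

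**Figure D2:**
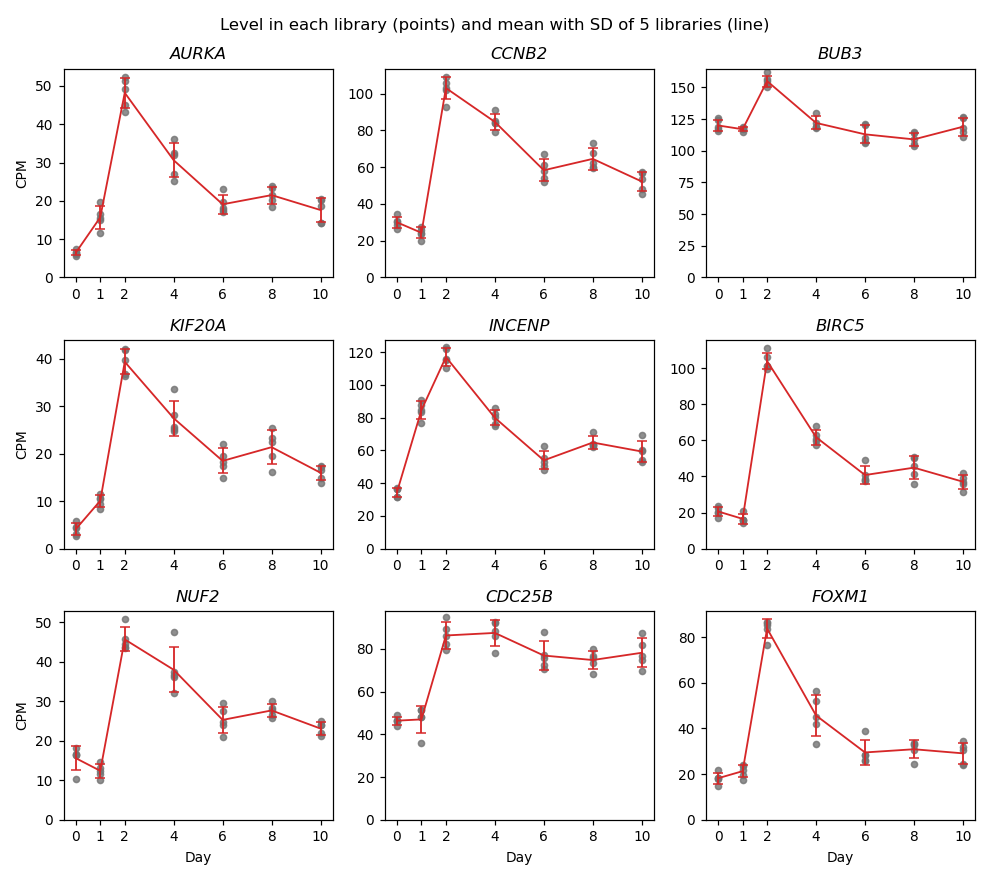
Level in CPM (vertical axes, each from 0) of 9 of the genes against day (horizontal axes), with a point for each library and a line through the mean with the SD of 5 libraries. INCENP was already raised on day 1, BIRC5 and NUF2 were lower on day 1 than on day 0, FOXM1 rose on day 2, and BUB3 and CDC25B had the smallest rises.

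Day 1 separated the genes that day 2 had in common. On day 1, 23 of the 48 were higher than on day 0 and 6 were lower, where 25.4% of all entries were called higher and 27.3% lower. The median log2 fold change of the 48 was 0.33, with a range from -0.57 to 1.29. In 17 genes every day 1 library lay above every day 0 library and in 3 (CDCA8, TOP2A and PTTG1) below, which held for 20.8% and 20.1% of all entries. The count of genes called higher lay between 18 and 25 when any 1 library was left out, was lowest without day 1 replicate 5, and was 29 when all transcript biotypes of a symbol were summed.

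By role, 8 of 10 kinesins, 5 of 6 kinases and 5 of 7 spindle assembly and cytokinesis genes were higher on day 1. None of the 4 genes grouped with the checkpoint was called, although the checkpoint kinase TTK, counted with the kinases, was higher. Of 8 centromere and kinetochore genes 1 was higher (CENPI) and 1 lower (NUF2). Only INCENP, AURKA, KIF20A and CCNA2 were higher by more than 2-fold, which 7.27% of all entries were. INCENP was at 36.3, 37.0, 31.8, 31.3 and 36.4 CPM on day 0 and at 83.4, 87.7, 76.7, 90.7 and 84.7 CPM on day 1, a log2 fold change of 1.29 ± 0.07 (SE, adjusted p = 5.84e-19). Its rise from day 1 to day 2 was among the smallest, 0.47 ± 0.07. The day 1 counts by role depend on how reads were divided among transcript entries. With entries summed, BUB1, BUB1B, CDC20, SPC24, SPC25, ESPL1 and FOXM1 were also called higher and KIF15 was not, as given below.

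AURKA was at 11.6, 16.5, 15.1, 15.6 and 19.8 CPM on day 1 (1.28 ± 0.15, SE, adjusted p = 6.63e-10), KIF20A at 9.41, 10.7, 8.30, 11.5 and 10.5 CPM (1.26 ± 0.17, adjusted p = 2e-08) and CCNA2 at 15.3, 18.1, 25.1, 21.3 and 24.2 CPM (1.01 ± 0.14, adjusted p = 3.31e-08). None of these libraries overlapped those of day 0. ANLN, KIF22 and ECT2 were higher by less, at 0.90, 0.45 and 0.31. The ECT2 call was lost without day 1 replicate 5 (adjusted p = 0.0688).

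The 6 genes that were lower on day 1 are from different steps of mitosis: cyclin B2, survivin, borealin, NUF2, topoisomerase II alpha and securin. TOP2A was at 67.6, 81.1, 93.5, 80.4 and 87.6 CPM on day 1 (-0.48 ± 0.07, SE, adjusted p = 2.73e-07), PTTG1 at 10.3, 13.5, 14.1, 12 and 9.30 CPM (-0.57 ± 0.11, adjusted p = 3.03e-05) and CDCA8 at 21.5, 23.1, 24.4, 20.4 and 25.2 CPM (-0.45 ± 0.08, adjusted p = 7.09e-06). These 3 did not overlap with day 0. CCNB2, at 30.7, 28.7, 30.0, 26.3 and 34.3 CPM on day 0 and 19.6, 23.8, 24.4, 27.6 and 26.0 CPM on day 1, BIRC5, at 14, 15.9, 15.9, 15.8 and 21.0 CPM on day 1, and NUF2, at 10.1, 13.1, 14.7, 11.7 and 12.3 CPM on day 1, overlapped with day 0 and were called at -0.31, -0.32 and -0.34. Without scaling factors these last 3 were no longer called, leaving 3 genes lower. BUB1, CDC20, BUB3, CDC25B, CENPA, ESPL1 and FOXM1 were not called on day 1, with log2 fold changes of 0.11, 0.14, -0.04, 0.02, 0.32, 0.58 and 0.23.

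The subunits of 1 complex thus went in different directions on day 1: INCENP was higher, BIRC5 and CDCA8 were lower, and AURKB was higher by 0.50. The cyclins did as well, with CCNA2 at 1.01 and CCNB1 at 0.87 against CCNB2 at -0.31, and securin fell while its target ESPL1 was at 0.58 (adjusted p = 0.0581). The falls of BIRC5 and CCNB2 are the less certain ones, with overlapping libraries and no call without scaling factors. The 23 genes called higher on day 1 had a median log2 fold change on day 2 against day 0 of 2.36, the 19 not called 1.95 and the 6 called lower 1.66, values that share the day 0 libraries with the day 1 calls. From day 1 to day 2, all 48 genes rose, 45 of them more than 2-fold, where 20.2% and 6.79% of all entries did. The largest rise was in BIRC5, 2.65 ± 0.10 on the log2 scale.

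**Figure D3:**
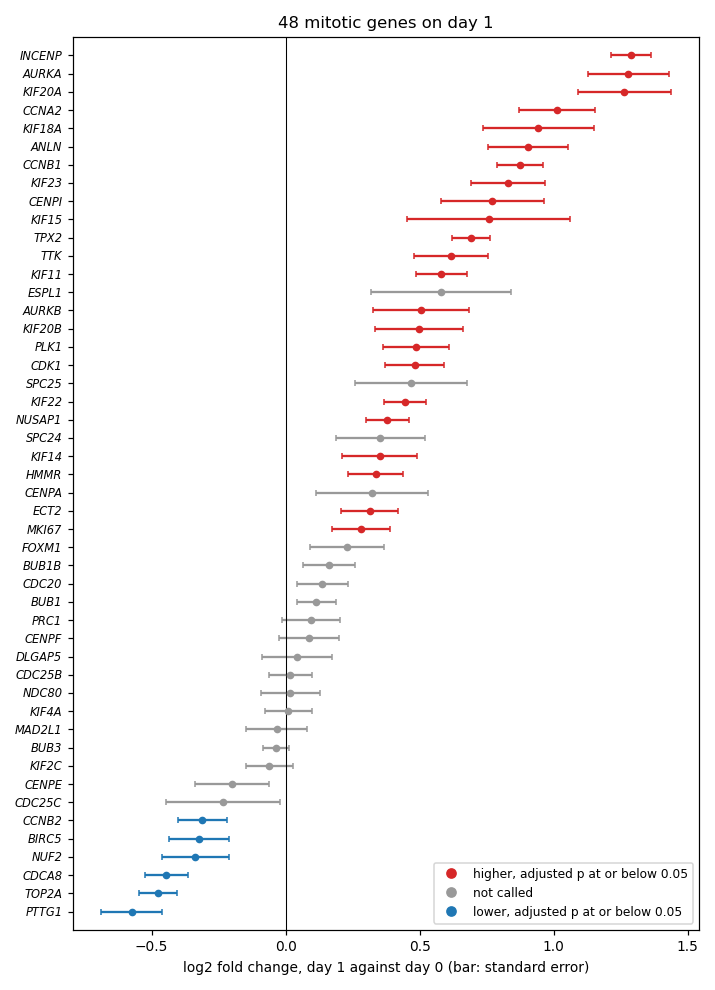
Log2 fold change on day 1 against day 0 for each of the 48 genes (horizontal axis), sorted, with its standard error; red marks the 23 genes called higher, blue the 6 called lower and gray the 19 not called. INCENP is highest at 1.29 and PTTG1 lowest at -0.57.

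The promoters of these genes are shown because the genes moved together on day 2 and apart on day 1, and because cell cycle promoters are known for 2 short elements. The cell cycle genes homology region, CHR, has the letters TTTGAA or TTTAAA and is bound by MuvB complexes, and CCAAT is bound by NF-Y. RefSeq promoters (build GRCh38.p14, 250 bases before to 50 after a start site) were matched by symbol for 42 of the 48 genes, 53 promoters in all. AURKA, TTK, BUB3, BIRC5, TPX2 and FOXM1 had no entry. Below are the 250 bases before the start, 5′ to 3′, for 3 genes higher on day 1 (KIF20A, INCENP, CCNA2) and 3 lower (CCNB2, TOP2A, PTTG1), with capitals marking TTTGAA or TTTAAA and also CCAAT on either strand, so that a CCAAT may also be written ATTGG.
KIF20A (chr5:138178862-138179111, plus strand): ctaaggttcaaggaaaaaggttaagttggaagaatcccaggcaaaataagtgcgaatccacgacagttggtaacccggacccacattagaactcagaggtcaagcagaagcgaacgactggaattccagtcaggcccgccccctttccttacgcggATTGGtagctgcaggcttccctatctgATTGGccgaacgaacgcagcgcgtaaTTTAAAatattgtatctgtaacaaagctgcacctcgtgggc
INCENP (chr11:62123761-62124010, plus strand): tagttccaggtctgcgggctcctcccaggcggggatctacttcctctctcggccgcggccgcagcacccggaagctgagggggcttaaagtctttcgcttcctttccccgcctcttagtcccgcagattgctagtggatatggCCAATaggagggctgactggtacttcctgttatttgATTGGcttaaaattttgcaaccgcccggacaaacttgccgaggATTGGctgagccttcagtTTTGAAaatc
CCNA2 (chr4:121823884-121824133, minus strand): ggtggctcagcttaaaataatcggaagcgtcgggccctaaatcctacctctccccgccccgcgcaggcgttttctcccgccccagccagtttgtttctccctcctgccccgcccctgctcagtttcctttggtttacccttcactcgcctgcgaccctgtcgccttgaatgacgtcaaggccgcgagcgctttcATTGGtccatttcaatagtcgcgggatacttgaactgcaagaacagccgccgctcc
CCNB2 (chr15:59104896-59105145, plus strand): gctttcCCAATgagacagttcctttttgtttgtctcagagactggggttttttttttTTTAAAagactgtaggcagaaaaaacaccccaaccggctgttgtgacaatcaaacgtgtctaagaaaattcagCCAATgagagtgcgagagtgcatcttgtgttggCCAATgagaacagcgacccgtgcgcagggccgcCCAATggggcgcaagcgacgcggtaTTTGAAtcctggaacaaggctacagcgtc
TOP2A (chr17:40417897-40418146, minus strand): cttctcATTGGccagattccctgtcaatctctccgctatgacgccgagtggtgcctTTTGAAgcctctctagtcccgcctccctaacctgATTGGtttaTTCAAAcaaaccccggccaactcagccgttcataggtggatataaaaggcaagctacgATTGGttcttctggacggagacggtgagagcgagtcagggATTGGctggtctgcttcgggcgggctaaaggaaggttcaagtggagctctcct
PTTG1 (chr5:160421605-160421854, plus strand): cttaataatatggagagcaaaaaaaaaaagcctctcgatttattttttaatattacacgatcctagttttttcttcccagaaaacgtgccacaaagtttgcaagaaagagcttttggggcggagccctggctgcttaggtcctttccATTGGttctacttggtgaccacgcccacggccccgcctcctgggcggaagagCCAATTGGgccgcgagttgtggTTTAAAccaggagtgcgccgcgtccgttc

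Of the 53 promoters, 75.5% held TTTGAA or TTTAAA, against 19.2% of the 19189 promoters of 13348 tested symbols. For CCAAT the shares were 73.6% and 34.3%, for both elements 58.5% and 7.56%, and for more than 1 CCAAT 41.5% and 11.2%. The windows have the same length, TTTAAA reads the same on both strands, and in PTTG1 a CCAAT overlaps its own complement in CCAATTGG. Some genes had more than 1 promoter, and the windows of a gene can overlap, as those of PTTG1 do. The same site may thus be counted again in these shares, match counts and distances. Of 64 CHR-letter matches in the 53 promoters, 47 lay between 100 bases before and 50 after the start, with a median of 30 bases before it, and the median of the 78 CCAAT matches was 82 bases before it. The shown promoters of both sets hold these letters: CCNB2 and TOP2A hold 4 CCAAT each, PTTG1 and INCENP 3, KIF20A 2 and CCNA2 1, and CCNA2 has no CHR-letter match. The 36 genes with CHR letters in any promoter had a median log2 fold change on day 2 of 1.97, and the 6 without (AURKB, BUB1, CCNA2, KIF22, CENPI and SPC24) 2.47. A match of letters is a description and not a bound site. Other letters of the CHR were not searched, so a gene without a match, such as CCNA2, may still hold the element.

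After day 2 the levels came down in 2 steps and then stayed above day 0. From day 2 to day 4, 43 of the 48 genes fell and none rose, with a median of -0.52 over the 48 on the log2 scale, where 16.7% of all entries were called lower and 13.9% higher. The 5 not called were CDC25B at 0.02, CDC25C at -0.02, KIF2C at -0.14, CENPE at -0.21 and PTTG1 at -0.17. From day 4 to day 6, 41 fell and none rose, with a median of -0.53 over the 48, where 5.98% of all entries were called lower and 6.09% higher. From day 6 to day 8 none fell and 2 rose, CDC20 by 0.29 and INCENP by 0.27, where 1.03% of all entries were called higher and 1.53% lower. From day 8 to day 10, 13 fell and none rose, where 4.97% were called lower and 5.08% higher. Leaving out 1 library moved the rises from day 6 to day 8 to between 0 and 4 and the falls from day 8 to day 10 to between 7 and 16, with 7 without day 8 replicate 3.

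Against day 0, 47 of the 48 were still higher on days 4, 6, 8 and 10, where 19%, 17.5%, 18.2% and 16.1% of all entries were, the exception on each day being BUB3. The number more than 2-fold higher went from 46 on day 2 to 45, 26, 33 and 21, where 4.12%, 3.18%, 3.6% and 2.41% of all entries were. On day 10 every library lay above every day 0 library in 43 genes, which held for 11.3% of all entries; BUB3, KIF20B, CENPI, SPC25 and ESPL1 overlapped. The median log2 fold change on day 10 was 0.94, against 2.11 on day 2. Between days 2 and 10, 47 genes fell, 29 of them more than 2-fold, where 18.8% and 2.57% of all entries did.

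The genes kept unequal parts of the day 2 rise. On the log2 scale the median gene still had 78.2%, 52.4%, 57.7% and 47.3% of its day 2 change on days 4, 6, 8 and 10. CDC25B kept the largest part on day 10, 83.8%, but of a day 2 rise that was among the smallest, 0.90. It was at 87.6, 74.9, 69.8, 76.7 and 82.0 CPM on day 10. Its change from day 2 was not called (-0.15 ± 0.07, SE, adjusted p = 0.119), although it was with all transcript biotypes summed (-0.16, adjusted p = 0.0326). KIF20A was at 15, 17.5, 16.5, 13.9 and 17.2 CPM on day 10, all above day 0 (1.93 ± 0.17, adjusted p = 3.72e-13), and AURKA at 14.2, 18.7, 20.3, 14.1 and 20.4 CPM (1.44 ± 0.15). CENPI and FOXM1 kept least apart from BUB3, 30.7% and 31.0%. FOXM1 was at 32.0, 34.5, 24.4, 24.0 and 30.6 CPM on day 10 (0.68 ± 0.13, adjusted p = 6.33e-05), and NUF2, at 21.1, 24.0, 24.9, 21.9 and 23.9 CPM, had the smallest change of the 8 centromere and kinetochore genes (0.57 ± 0.12).

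Libraries of the same day lay closer together on days 2 and 4 than on days 6, 8 and 10. The median log2 CPM of the 48 genes was 6.25 ± 0.04 on day 2 and 5.71 ± 0.03 on day 4, but 5.20 ± 0.14 on day 6, 5.31 ± 0.15 on day 8 and 5.11 ± 0.14 on day 10 (SD, n = 5). The spread on days 6 to 10 was shared between genes: replicate 5 was the highest of the day 6 libraries in 37 of the 48 genes and of the day 10 libraries in 36, and on day 8 replicate 3 was highest in 24 and replicate 4 in 18. On day 1, replicate 1 was the lowest in 27 genes and replicate 5 the highest in 22. Day 1 replicates 1 and 5 had the largest and the smallest total count of that day, 7921604 and 6759401, while the other libraries named had neither. The part of depth in this spread was not tested. The number of genes higher than day 0 was 46 on day 6 without replicate 5, 47 on day 8 without replicate 3 and 47 on day 10 without replicate 5.

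**Figure D4:**
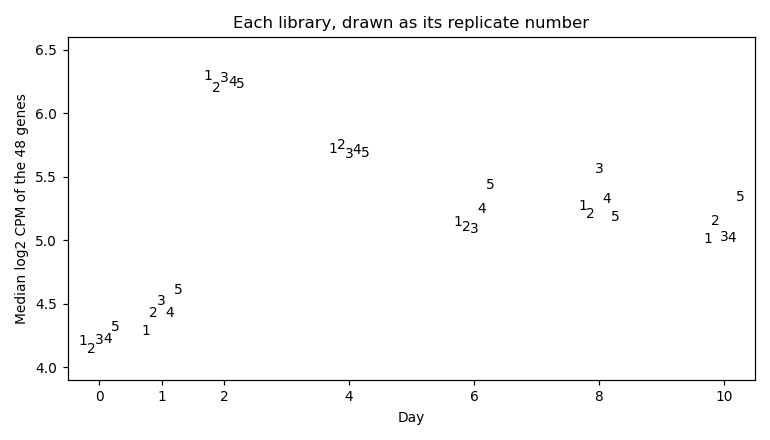
Median log2 CPM of the 48 genes (vertical axis) in each of the 35 libraries by day (horizontal axis), each library drawn as its replicate number. The day 2 libraries lie close together around 6.25, whereas replicate 5 on days 6 and 10 and replicate 3 on day 8 lie above the other libraries of their day.

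The table holds separate entries for other transcript types of the same symbols, such as transcripts with a retained intron or those marked for nonsense-mediated decay (NMD), and the estimate of counts divides reads among them. For the 48 symbols the protein-coding entry held 92.4% ± 0.279 of the counts on day 0 and 95.1% ± 0.423 on day 2, and the retained-intron entries 3.32% ± 0.222 and 2.24% ± 0.378 (SD, n = 5). Over all symbols the retained-intron share was 7.15% ± 0.574 on day 0 and 5.18% ± 0.44 on day 2, lower as well. Of 36 other entries, from 27 of the symbols, that passed the expression filter, 5 were higher and 2 lower on day 1, 16 were higher and 0 lower on day 2 and 7 were higher and 0 lower on day 10, where 10.9%, 9.5% and 7.56% of all entries that are not protein-coding were higher and 28.4%, 23.7% and 11.3% lower.

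For MAD2L1 the NMD entry rose more than the coding one, from 9.36 ± 1.78 to 35.2 ± 3.97 CPM (SD, n = 5; log2 fold change 1.91, adjusted p = 4.68e-15) beside 1.19 for the coding entry. On day 1 it was higher by 0.40 (adjusted p = 0.00919) while the coding entry was at -0.03. For PLK1 the retained-intron entry was at 2.72 ± 0.492 CPM on day 0 and 2.66 ± 0.783 on day 2 (-0.03, adjusted p = 0.953), beside a change of 2.77 in the coding entry. The differences between entries were not themselves tested.

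In 2 genes single libraries stood apart in the coding entry and the missing counts were listed under NMD. The coding entry of KIF15 held 1 count in day 0 replicate 1 and 19 to 63 in the other day 0 libraries, while its NMD entry held 76 counts in replicate 1 and 1 to 30 in the others. The coding entry of KIF15 was called higher on day 1 (0.76 ± 0.31, SE, adjusted p = 0.0329), but the sum of its entries was not (0.11, adjusted p = 0.546). ESPL1 had 18 coding and 154 NMD counts in day 8 replicate 3, against 102 to 193 coding and 0 NMD counts in the other day 8 libraries, and 30 coding and 35 NMD counts in day 0 replicate 5. With entries summed, ESPL1 was higher on day 1 (0.59, adjusted p = 8.03e-08), as were BUB1, BUB1B, CDC20, SPC24, SPC25 and FOXM1, none of which was called from the coding entry alone. KIF15, MAD2L1, PLK1 and these entries were chosen after their values were seen.

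Other genes of cell division were read from lists for comparison, with counts on day 2 against day 0, where 23.2% of all entries were called higher and 24.4% lower. Of 34 other kinetochore and centromere genes, 30 were higher and 1 lower, with a median log2 fold change of 1.42. SKA3, of the complex that holds kinetochores on depolymerizing microtubules, changed by 2.83 and MIS12, of the outer kinetochore, by -0.80, from 45.6 to 26.1 CPM. Of 20 other mitotic kinases and regulators 14 were higher and 2 lower (median 1.21, from MELK at 2.77 to NEK9 at -0.50), and of 18 cohesin and condensin genes 16 were higher and 0 lower (median 1.01), with CDCA5 (sororin), which protects cohesion, at 2.19 and NIPBL, the cohesin loader, at -0.20 (adjusted p = 0.0598).

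Subunits and regulators of the anaphase-promoting complex were 10 higher and 3 lower of 18, with a median of 0.26. They ran from ANAPC7 at 1.14 to ANAPC16 at -0.47, and the activator CDC20 rose by 1.99. Of 22 kinesins outside mitosis 6 were higher and 5 lower, near the shares of all entries (23.2% and 24.4%), with a median of -0.04. KIF21B, a motor of neurons and immune cells, went from 660 CPM on day 0 to 118 on day 2 (-2.48 ± 0.07, SE, adjusted p = 6.58e-28) and was at 567 CPM on day 10, while KIF3C changed by 2.26 at 0.769 and 3.73 CPM.

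Genes of the DREAM, MuvB, RB and E2F families were 13 higher and 1 lower of 20, with a median of 0.60, from E2F8 at 3.05 to E2F7 at -1.20, which are both repressor E2Fs. G1 and S phase cyclins and their kinases were 6 higher and 1 lower of 11 (median 0.22, from CCNE1 at 1.55 to CCND2 at -0.77). CDK inhibitors and arrest genes were 5 higher and 7 lower of 13 (median -0.40). CDKN3, a phosphatase of CDK1 and CDK2 whose transcript is itself cell cycle regulated, changed by 2.11, and CDKN1A, the inhibitor p21, was at 546, 58.3, 43.1 and 41.7 CPM on average for days 0, 1, 2 and 10 (-3.66 ± 0.09 on day 2, SE, adjusted p = 1.68e-29). On day 10 against day 0, where 16.1% of all entries were called higher and 15.8% lower, 19 of the 34 kinetochore genes were higher and 1 lower, 13 of the 20 kinases and regulators higher and 2 lower, and 16 of the 18 cohesin and condensin genes higher and 0 lower. For subunits and regulators of the anaphase-promoting complex the day 10 counts were 3 higher and 3 lower of 18, near the shares of all entries. For other kinesins they were 7 and 5 and for the DREAM and E2F list 13 and 1. For CDK inhibitors they were 5 and 6 and for G1 and S phase genes 3 and 2.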

How the data were processed

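Estimated counts per gene symbol and transcript biotype were deposited by the authors, who pseudoaligned reads to the GENCODE release 28 comprehensive transcriptome (GRCh38.p12) with Kallisto 0.44.0, adjusting for GC content, and summarised them in R 3.5.0 for DESeq2 1.25.8. The deposited values were whole numbers and were used as counts. Libraries were grouped by the day in the labels. All 17999 protein-coding entries that had a count were fitted together in edgeR 4.0.16 (quasi-likelihood test, TMM factors, day as factor, no block), with Benjamini-Hochberg adjustment over all of them. P-values measure the spread between subcultures of 1 culture. Standard errors are on the log2 scale. Other transcript biotypes were fitted over the 26617 entries that passed the expression filter. The members and gene lists were chosen with earlier results of these data known. Values in every library are given for the largest and smallest day 2 change in each role, FOXM1 and every gene lower than day 0 on any day. INCENP and the counts of KIF15 were added after their values were seen. KNL1 was read under CASC5, and CDKN2C and COL1A2 were not among the tested entries. Positions and exon overlaps came from GENCODE release 44. Alternatives were DESeq2 1.42.0, other scaling and filters, the replicate block, fits of 2 days only, leaving out each library and, chosen after seeing the data, summed biotypes.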

Additional observations from a re-analysis of the deposited data

Results flagged for a closer look

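Among the 19 genes given in every library and the median of the 48 genes, 11 of 140 groups of 5 libraries held 1 library far from the others by Dixon's test, where chance gives about 1 in 20 groups. On day 10, CCNA2 was at 36.7 CPM in replicate 5 (next 28.1), CENPA at 14.9 CPM in replicate 3 (next 9.66) and ESPL1 at 13.4 CPM in replicate 1 (next 20.7). On day 1, CDC25B was at 36.0 CPM in replicate 1 (next 48.2) and BIRC5 at 21.0 CPM in replicate 5 (next 15.9). On day 0, KIF22 was at 36.8 CPM in replicate 2 (next 32.1) and NUF2 at 10.2 CPM in replicate 5 (next 16.3). On day 8, ECT2 was at 49.4 CPM in replicate 3 (next 37.6) and PTTG1 at 31.4 CPM in replicate 1 (next 35.5). ANLN was at 19.8 CPM in day 4 replicate 1 (next 24.1) and FOXM1 at 38.9 CPM in day 6 replicate 5 (next 28.3). For ESPL1, day 10 replicate 1 held 65 NMD counts beside 76 coding counts. The cause was not tested in any of the 11 cases.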

How the results depend on the processing

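Of 414 counts of genes called under the alternatives, 392 stayed within 1.5 times the reported count and 22 did not, all in small counts. Without scaling factors, which moved the median of all expressed genes by 0.11, 0.13 and 0.11 (log2) for days 1, 2 and 4, 3 genes in place of 6 were lower on day 1. The 1 gene lower on day 8, BUB3, was not called (0 genes) without scaling factors, with only the 2 days fitted, with biotypes summed, or without day 0 replicate 4 or 5 or day 8 replicate 1, 2 or 5, so that leaving out a library gave 0 to 1. The 2 genes higher from day 6 to day 8 became 1 with the replicate block, 0 with only the 2 days and 0 to 4 without 1 library: 4 without day 6 replicate 5, 1 without day 6 replicate 1 or day 8 replicate 3, and 0 without day 6 replicate 2, 3 or 4 or day 8 replicate 4. From day 8 to day 10, 0 genes were higher as reported, and 1 was with the expression filter, without scaling factors or without day 10 replicate 3 (0 to 1 over all libraries). The 13 genes lower from day 8 to day 10 became 7 to 16, with 7 without day 8 replicate 3. The 19 named genes on days 1, 2 and 10 gave 950 calls as reported, 10 gained and 9 lost, none reversed. ESPL1 on day 10 lost its call without day 0 replicate 5 (adjusted p = 0.0839) or day 10 replicate 4 (adjusted p = 0.0523), and NUF2 on day 1 with only the 2 days or without day 0 replicate 4 or day 1 replicate 1. The cause of these changes was not tested. Over all genes that passed the expression filter, libraries with the same replicate number deviated together no more than others (correlations from -0.115 to 0.101). The number was therefore not taken as pairing. The 48 genes alone were not examined in this way. Replicate 5 had the highest median of the 48 genes on days 0, 1, 6 and 10 but not on days 2, 4 and 8. With the replicate block 48 genes were higher on day 2, and no other count besides the one given moved by over 1.5 times. Depth limits the lowest genes on day 0, such as CENPA with 8 to 32 and SPC25 with 10 to 22 counts per library.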
